A study of Homo sapiens with 16 samples.

Results

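The laminin and integrin chains were followed here in GIST T1 cells after siRNA silencing of 14 genes. They were taken from the array as every gene whose symbol is LAMA, LAMB, LAMC, ITGA or ITGB followed by a number, with or without a further letter, and which has a transcript cluster (the array's unit for a gene) annotated to that symbol alone. The search returned 27 of the 14232 genes with such a cluster, 9 laminin chains and 18 integrin chains, each with 1 cluster. The array measured 22011 clusters in all.

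GIST T1 is a cell line from a human gastrointestinal stromal tumor that carries an activating KIT mutation. The study profiled it on 16 Affymetrix Human Exon 1.0 ST arrays after transfection of 50 nM siRNA, to look for genes downstream of those whose silencing sensitized the cells to imatinib. The knockdown arrays, 1 per silenced gene, covered 10 zinc finger genes (ZNF708, ZNF665, ZNF528, ZNF431, ZNF429, ZNF254, ZNF100, ZNF91, ZNF85 and ZNF43) and 4 others (IGF2R, IGFBP2, RASSF8 and a gene the labels write GTF21, taken as GTF2I). The other 2 arrays held cells transfected with a non-silencing siRNA (siCON), labelled 24 h and 72 h, and the labels give no harvest time for the knockdown arrays. The study's text names a later hour for the earlier siCON array than its label does, so 24 h here is the label's value and that time is not settled. Because each knockdown is 1 array of 1 cell line, the spread between different knockdowns served as the error. Whether the siCON arrays were separate cultures is not stated, and the p-values cover only the spread among these arrays, which may be technical.

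Laminins are secreted trimers of an alpha, a beta and a gamma chain that polymerize into the sheet of a basement membrane, where nidogen ties them to collagen IV. Integrins are cell surface receptors made of an alpha and a beta chain, which bind the matrix outside the cell and the actin cytoskeleton inside it. The interstitial cells of Cajal, the cells that gastrointestinal stromal tumors resemble, can have a basal lamina in the gut wall.

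The promoters of 3 chains and partners that the results turn on were taken from RefSeq (GRCh38.p14), from 250 bases before to 50 bases after the annotated start, to show the sequence upstream of the called laminin chain LAMC1, of the called laminin partner NID1, and of LAMB1, a laminin chain that was not called. Capitals mark the GC box GGGCGG read on either strand, so that CCGCCC also counts, and overlapping matches run together. LAMC1 lies at chr1:183023170-183023469 on the plus strand, NID1 at chr1:236065041-236065340 on the minus strand and LAMB1 at chr7:108003112-108003411 on the minus strand. Each is written 5′ to 3′ on the strand of its gene.
LAMC1: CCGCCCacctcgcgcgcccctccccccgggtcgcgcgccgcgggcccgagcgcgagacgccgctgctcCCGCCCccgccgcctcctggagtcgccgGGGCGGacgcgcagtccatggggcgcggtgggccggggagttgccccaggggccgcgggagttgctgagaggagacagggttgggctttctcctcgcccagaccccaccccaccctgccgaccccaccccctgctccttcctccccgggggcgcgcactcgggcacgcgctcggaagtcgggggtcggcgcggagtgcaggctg
NID1: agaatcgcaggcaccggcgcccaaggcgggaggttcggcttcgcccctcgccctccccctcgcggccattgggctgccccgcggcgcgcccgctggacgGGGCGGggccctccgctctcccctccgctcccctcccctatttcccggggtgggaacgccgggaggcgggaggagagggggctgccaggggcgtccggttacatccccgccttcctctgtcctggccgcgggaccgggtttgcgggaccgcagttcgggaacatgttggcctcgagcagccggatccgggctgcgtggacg
LAMB1: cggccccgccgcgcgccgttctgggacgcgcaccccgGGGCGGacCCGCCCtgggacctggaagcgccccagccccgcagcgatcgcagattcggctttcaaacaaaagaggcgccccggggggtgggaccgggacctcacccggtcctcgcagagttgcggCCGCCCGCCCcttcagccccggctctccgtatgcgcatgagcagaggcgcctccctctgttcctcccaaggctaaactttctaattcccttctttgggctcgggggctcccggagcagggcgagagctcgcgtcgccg
The LAMC1 promoter held 3 GC boxes and the NID1 promoter 1, against 4 in the LAMB1 promoter, and 79%, 74.7% and 71% of their bases were G or C. A promoter was at hand for 19 of the 27 chains. The GC box occurred in 11 of these 19, and in 45.0% of all 35116 promoters of the same length. The promoters of LAMA4 and ITGA11, chains with some of the larger differences described next, held no GC box. The match is to letters only and says nothing of what binds there.

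The values are log2 expression after RMA normalization, and a difference of 1 on this scale is a 2-fold change. Array medians lay between 7.75 and 7.87. The SD over clusters was 2.16 to 2.27 on the knockdown arrays and 2.27 and 2.26 on the siCON arrays, and the lowest 4 were those of the IGF2R, ZNF431, RASSF8 and ZNF85 knockdowns. Along with that narrower range, clusters of olfactory receptor genes, which are taken to be silent in these cells, were higher on the knockdown arrays by a median of 0.21, and all clusters by a median of 0.07. A cluster of its own was found for 5 of the silenced genes. For RASSF8, ZNF254 and IGFBP2, the knockdown array was the lowest of the 16, at 1.34, 1.42 and 0.41 under the siCON mean, while ZNF43 was 0.54 under it, with 2 arrays lower. ZNF528 had 4.54 on its own array against 4.65 and 4.80 in siCON, all under the background level of 6.61 used for the chains, so its silencing could not be checked. All 5 measured markers of gastrointestinal stromal tumors (KIT, ANO1, CD34, ETV1 and PRKCQ) were above background, and none of the 4 endothelial markers was. The leukocyte list had 1 of 3 measured markers above background, the smooth muscle list 3 of 3 and the epithelial list 3 of 5.

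The first question was which chains these cells express. A chain was counted as above background where its siCON mean exceeded 6.61, the 95th percentile of 220 olfactory receptor clusters on the same arrays, since RMA values carry no detection call. By this rule 18 of the 27 chains were above background and 9 were not, namely LAMA1, LAMA2, LAMA4, LAMB4, ITGA8, ITGA10, ITGB3, ITGB6 and ITGB8. A stricter level, the median of all clusters at 7.75, left 10, namely LAMA5, LAMB1, LAMB2, LAMC1, ITGA2, ITGA5, ITGA6, ITGB1, ITGB4 and ITGB5. These 10 hold at least 1 alpha, 1 beta and 1 gamma laminin chain, and they include the chains of the laminin receptors alpha6 beta1 and alpha6 beta4 and of the fibronectin receptor alpha5 beta1. The beta4 chain ITGB4 only just passed the stricter level, with a siCON mean of 7.77 from values of 7.64 at 24 h and 7.91 at 72 h. ITGB2 and ITGB7, beta chains known from leukocytes, were above the lower level only, with siCON values of 6.92 and 6.99 for ITGB2 and 6.72 and 6.68 for ITGB7. Brightness depends on the probes of each cluster, so the chains are not ranked by level.

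**Figure D1:**
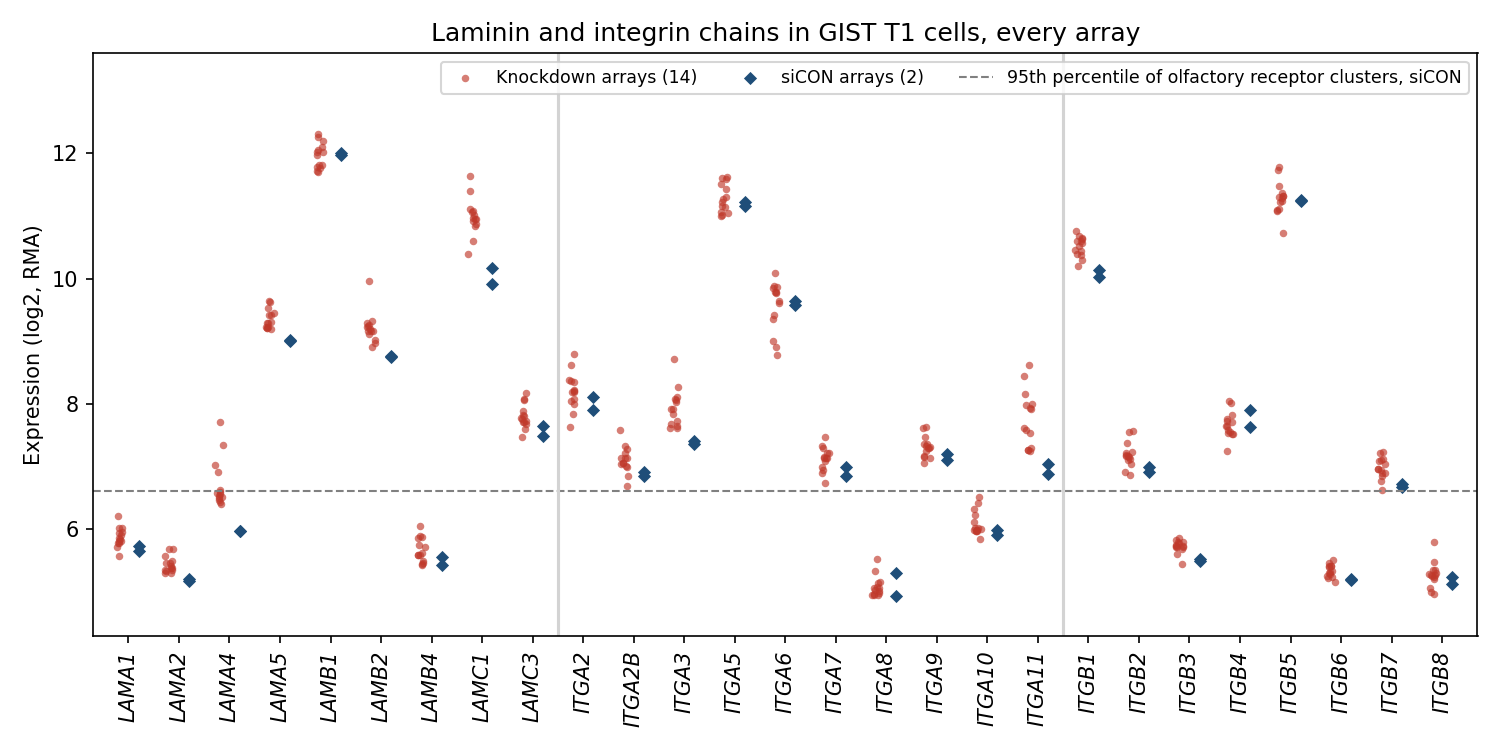
Log2 RMA expression (vertical axis) of the 27 laminin and integrin chains on each of the 14 knockdown arrays (red circles) and 2 siCON arrays (blue diamonds), with the 95th percentile of olfactory receptor clusters on the siCON arrays, 6.61, as a dashed line. The siCON diamonds of 18 chains average above the line, and the red circles of LAMC1 lie entirely above its siCON diamonds while those of LAMB1 lie on both sides.

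Across the 14 knockdowns, the laminin gamma chain LAMC1 was the 1 chain that passed the test against siCON, at about 1.93 times its siCON level, and no chain was called lower. LAMA4, ITGA11, ITGA3, LAMB2, ITGB1, LAMA5 and LAMA2 were above both siCON arrays on every knockdown array without passing it. Among them, LAMA4 and LAMA2 were not above background in siCON. LAMB1, ITGA5, ITGA6, ITGB4 and ITGB5, all well above background, had siCON values inside the range of the knockdown arrays.

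The test was limma over all 22011 clusters, two-sided, with Benjamini-Hochberg adjustment and a threshold of 0.05. It called 0.259% of clusters higher and 0.282% lower, against 1 higher and 0 lower among the 27 chains. At an unadjusted p under 0.05 it took 10 chains as higher and 0 as lower, where 7.77% of all clusters were higher and 6.93% lower. For 8 chains all 14 knockdown arrays were above both siCON arrays, and for 0 chains below both, where 4.81% and 4.52% of all clusters were so. The mean difference was above 0 for 23 of the 27 chains and for 59.4% of all clusters. Its median over the chains was 0.21, the same as over the olfactory receptor clusters and above the 0.07 of all clusters. After a loess trend against mean expression was taken out of the differences, the median over the chains was 0.13, against 0.04 over all clusters. After that step 25 chains were above 0, and the share of all clusters above 0 was not counted, so this number has no background. The part of the narrower range of the knockdown arrays in the chains' differences was not tested beyond these values.

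Among the gamma chains, LAMC1, on chromosome 1, encodes laminin gamma1, which is shared by most laminin trimers. Its log2 expression on the knockdown arrays was lowest at 10.39 (ZNF91), with a median of 10.96 and the highest value at 11.63 (ZNF431), against 10.16 and 9.91 on the siCON arrays at 24 h and 72 h. Every knockdown array was thus above both siCON arrays. The mean was 10.99 ± 0.298 in the knockdowns (SD, n = 14) and the difference from siCON was 0.95 (SE 0.206, 95% interval 0.51 to 1.38, limma adjusted p = 0.0466). An exact two-sided permutation test over the 120 ways to choose 2 of 16 arrays gave p = 0.00833, the smallest it can give. The call was close to the threshold. It was lost without either siCON array, with a difference of 1.07 without the 24 h array (limma adjusted p = 0.414) and of 0.82 without the 72 h array (limma adjusted p = 0.682), and also without any 1 of the GTF2I, ZNF100, ZNF43, ZNF85, IGF2R, IGFBP2, RASSF8, ZNF528, ZNF665 and ZNF708 arrays. The bulk measurement cannot tell a higher level per cell from a change in the share of cells that express the gene. LAMC3, the gamma3 chain, ran between 7.47 and 8.17 in the knockdowns, against 7.49 and 7.65 in siCON (difference 0.23, limma adjusted p = 0.396).

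Of the alpha chains, LAMA4, on chromosome 6, encodes the alpha4 chain of laminins in vessel walls and around smooth muscle. It lay between 6.41 (ZNF528) and 7.71 (ZNF254) in the knockdowns, with a median of 6.58, against 5.97 and 5.98 in siCON. The ranges did not overlap, but both siCON values were under the background level, and the knockdown value exceeded the background level of its own array for only 4 knockdowns (IGFBP2, ZNF254, ZNF431 and ZNF665). The difference was 0.75 (SE 0.256, limma adjusted p = 0.224, exact permutation p = 0.0333).

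LAMA5, on chromosome 20, encodes the alpha5 chain found in most adult basement membranes. It had 9.20 (ZNF429) to 9.65 (ZNF254) in the knockdowns, with a median of 9.30, against 9.00 and 9.03 in siCON. Knockdown and siCON arrays were again apart, by a smaller distance (difference 0.35, SE 0.123, limma adjusted p = 0.237, exact permutation p = 0.0167). LAMA2, the merosin chain of muscle, was below background in both groups, at 5.30 to 5.69 in the knockdowns against 5.18 and 5.22 in siCON (difference 0.25, limma adjusted p = 0.317). LAMA1, the alpha1 chain of early embryonic laminin, was likewise below background, at 5.57 to 6.21 in the knockdowns against 5.65 and 5.74 in siCON.

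Of the beta chains, LAMB2, on chromosome 3, encodes the beta2 chain of synaptic and glomerular laminins. It lay between 8.92 (ZNF708) and 9.96 (ZNF431) in the knockdowns, with a median of 9.18, against 8.76 and 8.75 in siCON. All knockdown arrays were above both siCON arrays (difference 0.46, SE 0.173, limma adjusted p = 0.258, exact permutation p = 0.0833). LAMB1, on chromosome 7, encodes the widespread beta1 chain. It had 11.70 (RASSF8) to 12.31 (ZNF91) in the knockdowns, with a median of 12.00, against 12.01 and 11.97 in siCON. The siCON arrays sat in the middle of the knockdown range, and the difference was -0.02, with a 95% interval of -0.34 to 0.29 (limma adjusted p = 0.939). The difference between LAMC1 and LAMB1 in their response was not itself tested. LAMB4, a further beta chain, was below background, at 5.43 to 6.05 in the knockdowns against 5.44 and 5.57 in siCON.

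Taken by kind, 5 of the 9 laminin chains (LAMA2, LAMA4, LAMA5, LAMB2 and LAMC1) had every knockdown array above both siCON arrays, with a median difference of 0.25 over the 9. The integrin chains had 3 of 18 (ITGA3, ITGA11 and ITGB1), with a median difference of 0.18 over the 18. The background for both counts is the 4.81% of all clusters given above. Laminin and integrin chains were not tested against each other.

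**Figure D2:**
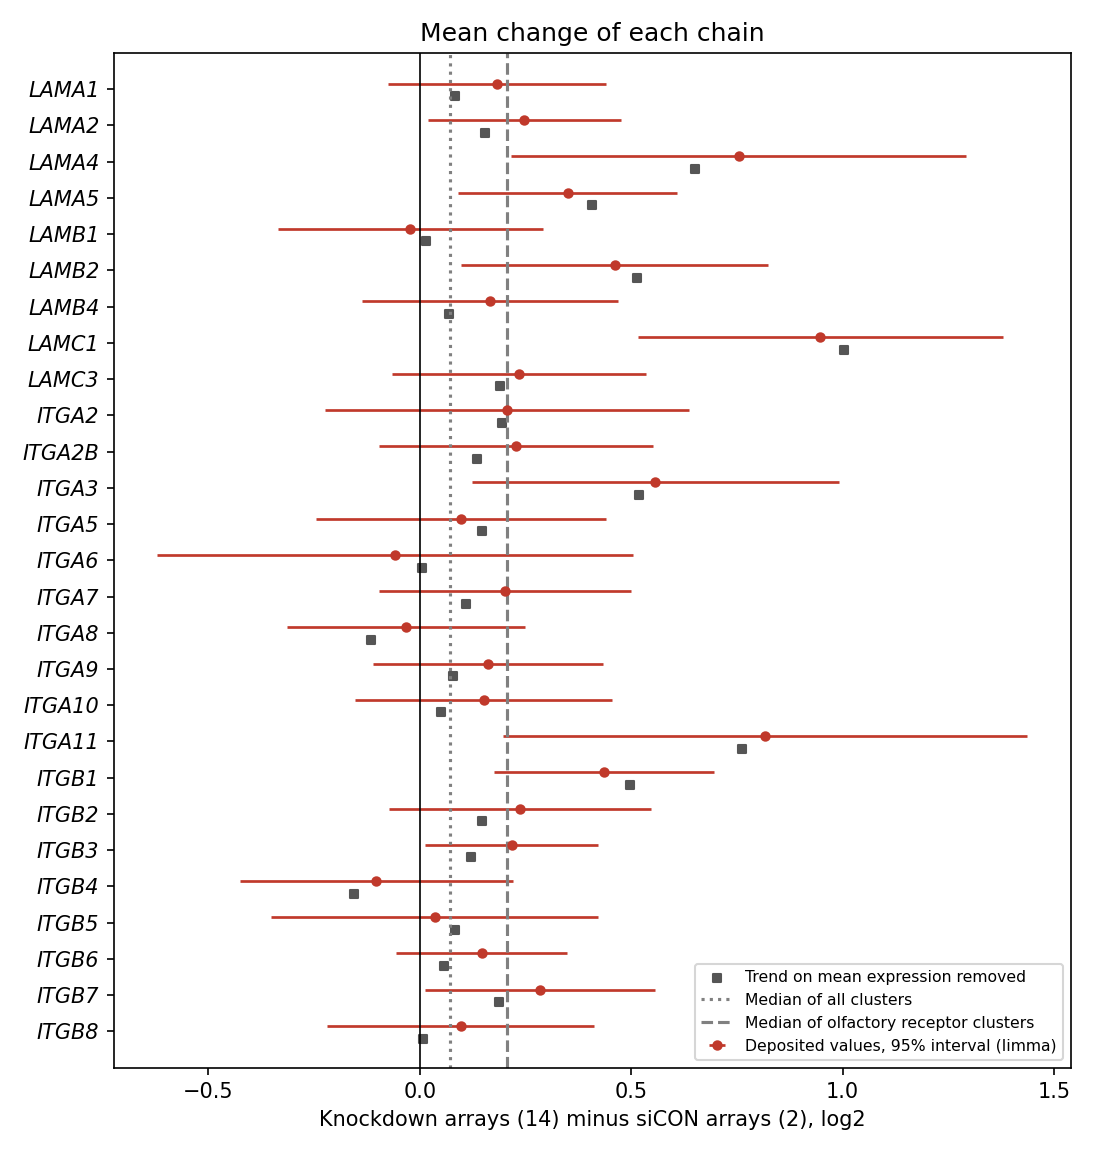
Mean log2 difference of the 14 knockdown arrays from the 2 siCON arrays for each chain (red circles, with 95% limma intervals), and the same difference after the trend on mean expression was removed (grey squares). The vertical lines stand at 0 (solid), at the median of all clusters, 0.07 (dotted), and at the median of olfactory receptor clusters, 0.21 (dashed), and the intervals of LAMC1 and LAMA4 lie wholly to the right of all 3.

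Of the integrin alpha chains, ITGA11, on chromosome 15, encodes alpha11, a collagen receptor of fibroblasts. It ran between 7.26 (GTF2I) and 8.63 (ZNF665) in the knockdowns, with a median of 7.77, against 7.05 and 6.88 in siCON. The groups did not overlap, and the knockdown arrays were widely spread (mean 7.78 ± 0.448, SD, n = 14). The difference was 0.82 (SE 0.295, limma adjusted p = 0.245, exact permutation p = 0.025).

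ITGA3, on chromosome 17, encodes alpha3, which pairs with beta1 to bind laminins that hold alpha5. It had 7.62 (ZNF528) to 8.73 (IGFBP2) in the knockdowns, with a median of 7.93, against 7.37 and 7.41 in siCON. The IGFBP2 array was the highest of all, and the ZNF528 array the closest to siCON (difference 0.56, SE 0.207, limma adjusted p = 0.256, exact permutation p = 0.05).

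ITGA6, on chromosome 2, encodes alpha6, the other main laminin-binding alpha chain. It had 8.78 (IGF2R) to 10.09 (ZNF708) in the knockdowns, with a median of 9.71, against 9.58 and 9.64 in siCON. The siCON values lay inside that range, and the mean difference was -0.06, with a 95% interval of -0.62 to 0.50 (limma adjusted p = 0.910). The 3 lowest arrays were those of the IGF2R, ZNF85 and ZNF431 knockdowns, at 0.84, 0.70 and 0.60 below the siCON mean, and these are 3 of the 4 arrays with the smallest SD over clusters. The remaining array of those 4, RASSF8, was 0.27 above the siCON mean. With the trend on mean expression removed, the IGF2R, ZNF85 and ZNF431 differences were -0.65, -0.64 and -0.53. Without those 4 arrays, which hold the 3 lowest values, the mean difference was 0.11. The cause was not tested.

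ITGA5, on chromosome 12, encodes the fibronectin-binding alpha5. It had 11.00 (ZNF528) to 11.62 (IGF2R) in the knockdowns, with a median of 11.24, against 11.15 and 11.22 in siCON (difference 0.10, limma adjusted p = 0.737). ITGA2, the alpha2 chain of a collagen receptor, ran between 7.63 (IGF2R) and 8.81 (ZNF665) in the knockdowns, with a median of 8.20, against 8.11 and 7.90 in siCON (difference 0.21, limma adjusted p = 0.565). For both genes the siCON arrays fell within the knockdown range. The platelet chain ITGA2B, the laminin-binding chain of muscle ITGA7 and the tenascin and VCAM1 receptor chain ITGA9 differed by 0.23, 0.20 and 0.16, and the chains below background, ITGA8 and ITGA10, by -0.03 and 0.15, none of which passed the test.

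Of the beta chains, ITGB1, on chromosome 10, encodes beta1, the partner of most of the alpha chains named here. It lay between 10.20 (ZNF429) and 10.77 (RASSF8) in the knockdowns, with a median of 10.54, against 10.13 and 10.02 in siCON. Every knockdown array was above both siCON arrays, and the spread was small (mean 10.51 ± 0.157, SD, n = 14). The difference was 0.43 (SE 0.124, 95% interval 0.17 to 0.70, limma adjusted p = 0.150), with the smallest exact permutation p, 0.00833. ITGB1 thus did not pass the adjusted threshold, also with the trend on mean expression removed (0.50, adjusted p = 0.0869).

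ITGB4, on chromosome 17, encodes beta4, the partner of alpha6 in hemidesmosomes. It had 7.25 (ZNF429) to 8.05 (RASSF8) in the knockdowns, with a median of 7.65, against 7.64 and 7.91 in siCON (difference -0.10, limma adjusted p = 0.707). ITGB5, on chromosome 3, encodes a beta chain that pairs with alphaV to bind vitronectin. It had 10.72 (ZNF708) to 11.77 (ZNF91) in the knockdowns, with a median of 11.29, against 11.26 and 11.25 in siCON (difference 0.03, limma adjusted p = 0.922). Neither gene separated the groups. The leukocyte chains ITGB2 and ITGB7 differed by 0.24 and 0.28, and the chains below background, ITGB3, ITGB6 and ITGB8, by 0.22, 0.15 and 0.10. None of these 5 differences passed the test, and the olfactory receptor median was 0.21. The part of that shift in them was not tested.

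**Figure D3:**
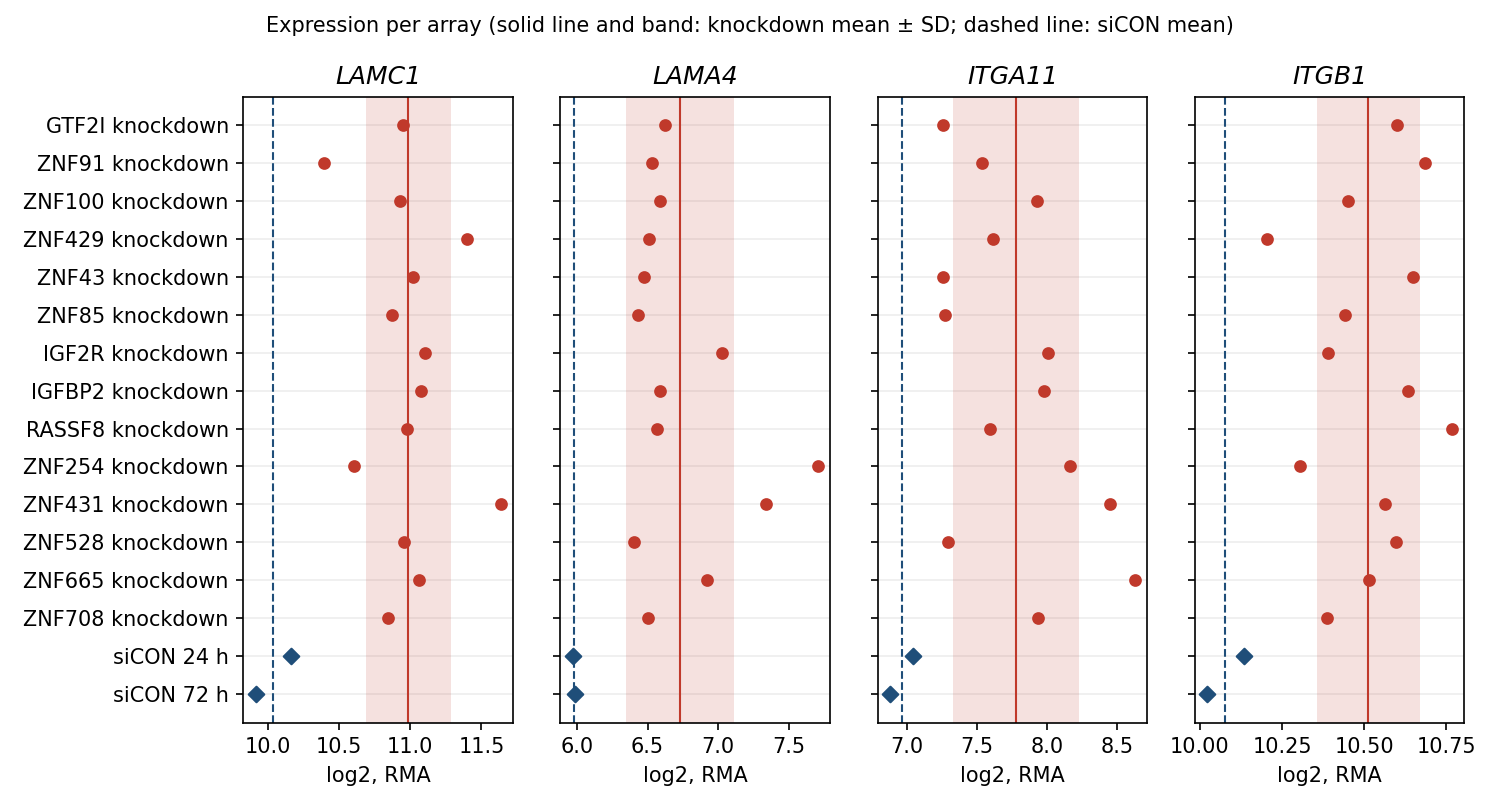
Log2 RMA expression (horizontal axes, which differ in range between panels) of LAMC1, LAMA4, ITGA11 and ITGB1 on each knockdown array (red circles, with the mean as a solid line and ± 1 SD as a band) and on the siCON arrays at 24 h and 72 h (blue diamonds, with their mean as a dashed line). All 14 knockdown arrays lie to the right of both siCON arrays in each panel, closest for LAMC1 in ZNF91 (10.39) and for ITGB1 in ZNF429 (10.20).

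The second question was how the chains changed in each knockdown, for which the difference of 1 array from the mean of both siCON arrays was read with no test. A difference of at least 1 in either direction was taken as past the fold. Of the 378 pairs of a chain and a knockdown, 15 (3.97%) were higher by at least 1 and 0 were lower, where 0.672% of all pairs of a cluster and a knockdown were higher and 1.49% lower. The 15 pairs fell on 5 genes. LAMC1 passed in ZNF431 (1.59), ZNF429 (1.36), IGF2R (1.07), IGFBP2 (1.04) and ZNF665 (1.02). ITGA11 passed in ZNF665 (1.66), ZNF431 (1.49), ZNF254 (1.20), IGF2R (1.04) and IGFBP2 (1.02). Both genes passed in ZNF431, ZNF665, IGF2R and IGFBP2. LAMA4 passed in ZNF254 (1.73), ZNF431 (1.37) and IGF2R (1.05), ITGA3 in IGFBP2 (1.33) and LAMB2 in ZNF431 (1.21). The LAMA4 value on the IGF2R array, 7.03, was under the background level of that array, 7.16.

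The ZNF431 array had 4 chains past the fold, where 1.2% of all clusters were higher by as much, and the IGF2R and IGFBP2 arrays had 3 each, where 1.23% and 1.04% were. The ZNF254 and ZNF665 arrays had 2 each (0.922% and 0.595% of all clusters) and the ZNF429 array had 1 (0.563%). The other 8 arrays had 0, where the share of all clusters was 0.513% for GTF2I, 0.382% for ZNF91, 0.572% for ZNF100, 0.313% for ZNF43, 0.595% for ZNF85, 0.727% for RASSF8, 0.413% for ZNF528 and 0.341% for ZNF708. ZNF431 and IGF2R are among the 4 arrays with the smallest SD over clusters, while ZNF85 and RASSF8, also among them, had 0 pairs. Leaving out those 4 arrays therefore only takes away the pairs of ZNF431 and IGF2R, and 8 pairs remained. With the trend on mean expression removed, the 4 ZNF431 differences ran from 1.22 to 1.70. Those of IGF2R were then 1.23 (LAMC1), 0.92 (ITGA11) and 0.78 (LAMA4). At the lower end, LAMC1 was 0.35 above the siCON mean in ZNF91 and 0.57 in ZNF254, and ITGA11 was 0.30 above it in both GTF2I and ZNF43. LAMA4 and LAMC1 did not order the knockdowns alike, since ZNF254 was the highest array for LAMA4 and the lowest but one for LAMC1.

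Most chains were above the siCON mean on most arrays. The number was 15 of 27 on the ZNF429 array, where 48% of all clusters were above it, and 26 on the GTF2I array, where 56.5% were. The median difference over the chains was 0.04 on the ZNF429 array and 0.49 on the IGF2R array, the lowest and the highest, beside olfactory receptor medians of 0.08 and 0.34 on the same arrays.

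**Figure D4:**
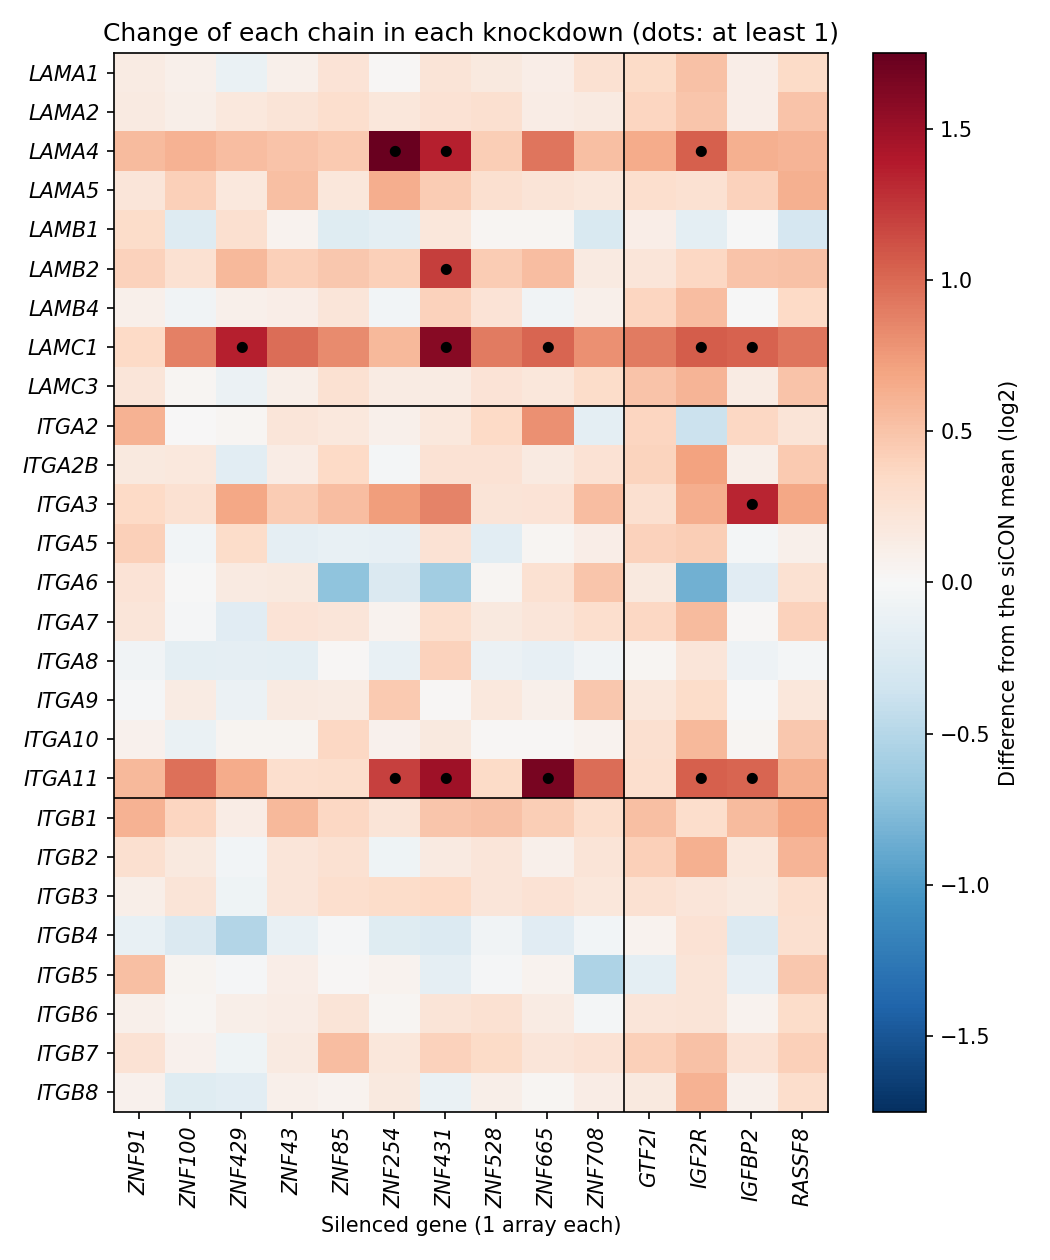
Log2 difference from the siCON mean (colour, red above and blue below 0) of each chain (vertical) on each knockdown array (horizontal, the 10 ZNF knockdowns to the left of the 4 others), with a dot where it is at least 1. The 15 dots fall on LAMC1, ITGA11, LAMA4, ITGA3 and LAMB2, and blue squares are most marked for ITGA6 in IGF2R (-0.84) and ZNF85 (-0.70).

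The siCON arrays differ in time after transfection, so their own difference was set beside the chains. From 24 h to 72 h the chains changed by a median of 0.08 in size, against 0.11 for all clusters, and by at most 0.36 (ITGA8). LAMC1 was 0.25 lower at 72 h than at 24 h. Time and replicate cannot be told apart with 1 array each.

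The ZNF knockdowns were then set against the other knockdowns in a limma fit with 3 groups. It called 0 of the 22011 clusters and 0 of the 27 chains, while 19.8% of clusters and 8 chains had an unadjusted p under 0.05. The chains' differences ran from -0.31 (ITGB2) to 0.13 (ITGA6), with 21 of 27 lower in the ZNF knockdowns and a lowest limma adjusted p of 0.192. All clusters leaned the same way, with a median of -0.02, and 2994 were lower against 1375 higher at an unadjusted p under 0.05. The share of all clusters lower by any amount was not counted, so the 21 of 27 has no background. LAMC1 averaged 10.97 ± 0.354 in the ZNF knockdowns (SD, n = 10) and 11.03 ± 0.0770 in the others (n = 4), a difference of -0.06 with a 95% interval of -0.40 to 0.29. LAMA4 and ITGA11 differed by 0.04 (-0.40 to 0.47) and 0.10 (-0.40 to 0.60). Differences up to the ends of these intervals cannot be told from 0 with these arrays.

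This comparison turned on 1 array. Without the IGFBP2 array, limma called 15.3% of all clusters, 11.9% as lower in the ZNF knockdowns, and 9 of the 27 chains, all lower in the ZNF knockdowns, by 0.26 to 0.40 (adjusted p 0.0164 to 0.0429). They were LAMA1, LAMA2, LAMB4, LAMC3, ITGA2B, ITGA10, ITGB2, ITGB4 and ITGB8, of which 4 were above background and 5 were not. Olfactory receptor clusters had medians of 0.34, 0.38 and 0.32 above siCON on the IGF2R, RASSF8 and GTF2I arrays and of 0.07 on the IGFBP2 array, and their part in these 9 calls was not tested.

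The proteins that work with these chains were read from 5 lists. Each count of calls stands beside the 0.259% of clusters called higher and 0.282% called lower. Each count at an unadjusted p under 0.05 stands beside the 7.77% of clusters higher and 6.93% lower at that level. Of 15 measured basement membrane partners of laminin, 1 was called higher (NID1) and 0 lower, with a median difference of 0.30. NID1, on chromosome 1, encodes nidogen-1, which binds the laminin gamma1 chain and collagen IV. It lay between 11.20 (RASSF8) and 11.73 (IGF2R) in the knockdowns, with a median of 11.37, against 10.79 and 10.31 in siCON. All knockdown arrays were above both siCON arrays, and the difference was 0.86 (SE 0.141, limma adjusted p = 0.00959, exact permutation p = 0.00833). NID1 was 0.48 lower on the 72 h than on the 24 h siCON array, and without the 72 h array the difference was 0.62 and the call was lost (limma adjusted p = 0.682). SPARC, a collagen-binding matricellular protein, and COL4A1, a chain of collagen IV, differed by 0.72 (limma adjusted p = 0.279) and 0.35 (adjusted p = 0.329).

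Of 13 measured genes on the list of laminin receptors other than integrins, 0 were called and the median difference was 0.08. At an unadjusted p under 0.05 there were 2, both higher. The list also held genes of proteins that accompany or modify such receptors (SGCB, SGCE, SSPN, DMD, UTRN, POMT1, POMT2 and POMGNT1). DAG1, the gene of the receptor dystroglycan, had no cluster under its own symbol alone. BCAM, the Lutheran receptor for laminin alpha5, had 8.23 to 8.81 in the knockdowns against 7.93 and 8.00 in siCON, so that all knockdown arrays were above (difference 0.52, SE 0.125, limma adjusted p = 0.0788). SGCE, a sarcoglycan, differed by 0.44 (limma adjusted p = 0.203) and the syndecan SDC4 by 0.24 (adjusted p = 0.381).

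Of 21 measured proteins that bind integrin tails or chains, 0 were called, with 3 higher and 2 lower at an unadjusted p under 0.05 and a median difference of 0.15. The tetraspanin CD81 differed by 0.28 (limma adjusted p = 0.217), CIB1, which binds the tail of alphaIIb, by 0.40 (adjusted p = 0.237), and caveolin CAV1 by -0.98 (adjusted p = 0.251). CAV1 was below both siCON arrays on 13 of 14 knockdown arrays, with ZNF665 the exception at 9.32 against 9.04 and 9.18 in siCON.

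Of 26 measured integrin ligands other than laminins, 0 were called higher and 2 lower, with a median difference of 0.15. The lower ones were TGFB3, the growth factor held by integrin-bound latent complexes (difference -1.65, limma adjusted p = 0.00114), and POSTN, the alphaV integrin ligand periostin (-2.21, adjusted p = 0.00452). The study picked both on these arrays, so the count is no independent evidence of their direction, and both calls were lost without the 72 h siCON array. The paper states that quantitative PCR bore out its array findings, with those data not shown. TGFB1 was higher on all 14 knockdown arrays than on both siCON arrays without passing the test (0.55, limma adjusted p = 0.175). Of the 3 measured alpha chains without a number, ITGAV, which pairs with beta5, had 9.81 to 10.61 in the knockdowns against 10.31 and 10.22 in siCON (difference -0.06, limma adjusted p = 0.851), and ITGAL and ITGAX differed by 0.17 and 0.18.

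Among the markers of cell types, EPCAM was called lower, at 4.03 to 4.33 in the knockdowns against 4.39 and 5.50 in siCON, all under the background level (difference -0.78, limma adjusted p = 0.0421). It was 1.11 higher on the 72 h than on the 24 h siCON array, and without the 72 h array the difference was -0.23. The call held in 4 of the 16 fits that left out 1 array, those without the 24 h siCON, ZNF429, IGF2R or RASSF8 array. The other measured markers were not called, among them ETV1 (0.62, limma adjusted p = 0.109), a transcription factor of interstitial cells of Cajal, and the keratin KRT18 (-0.53, adjusted p = 0.230). The epithelial markers did not move one way. The keratin KRT8 was above both siCON arrays on all 14 knockdown arrays (0.51, limma adjusted p = 0.254), while KRT19 differed by 0.04 and CDH1 by -0.12. KIT had 12.96 to 13.50 in the knockdowns against 13.42 and 13.28 in siCON.

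Some clusters are shared by a chain and another gene and were left outside the counts, since their signal cannot be given to 1 gene. For ITGA4 and CERKL, 1 cluster ran between 6.55 (ZNF254) and 8.72 (RASSF8) in the knockdowns, with a median of 7.18. It had 6.87 and 6.85 in siCON, and RASSF8 stood 1.86 above the siCON mean there. Another cluster of the same genes did not repeat this. It was below background, at 4.52 (IGFBP2) to 4.97 (GTF2I) against 4.54 and 4.53 in siCON, at most 0.44 above the siCON mean. The cluster of LAMB3 and MIR4260 had 6.51 to 7.25 in the knockdowns against 6.37 and 6.66 in siCON. That of ITGA1 and PELO had 5.82 to 6.58 against 6.33 and 6.12. A cluster of ADGRE3 and ITGB1, apart from the cluster of ITGB1 alone, was below background, at 5.07 to 5.67 against 5.06 and 5.24. Chains without a cluster under their own symbol alone were not analysed here.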

How the data were processed

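RNA of GIST T1 cells was hybridized to 16 Affymetrix Human Exon 1.0 ST arrays, giving values for 22011 transcript clusters. The deposited values are log2 expression, which the authors made from the scans with RMA in the oligo package, summarized to genes from the core probes, and the notes name hg19, with no versions. They were used as deposited. Genes were named from the platform annotation: 14432 clusters have 1 symbol, 2408 several and 5171 none, and where a gene had several single-symbol clusters the brightest on average was used. All 16 value columns were used.

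Knockdown arrays were compared with siCON, and ZNF with other knockdowns, in limma 3.58.1 under R 4.3.3, over all clusters with Benjamini-Hochberg adjustment and a threshold of 0.05. The script was tested on simulated data. Exact permutation tests, medians and promoter motifs (RefSeq, GRCh38.p14) were computed in Python 3.11.15. With 14 knockdown and 2 siCON arrays, the number of arrays limits the precision.

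Full values are given for chains called in either contrast, for the 5 chains above background with the largest and the 5 with the smallest difference, and for those past a log2 difference of 1 in any knockdown, and in other lists for called genes and the 3 with the smallest p. The members and lists were chosen with earlier results of these data known, so that no count of them is independent evidence. Alternatives covered the scaling of arrays, a trend on mean expression (loess, span 0.3), a filter on dim clusters, the variance model, the methods' t-test with pooled variance, the background level, the fold, and leaving out arrays.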

Additional observations from a re-analysis of the deposited data

Results flagged for a closer look

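Of 54 groups of arrays (27 chains in the 10 ZNF and the 4 other knockdowns), 4 had a lowest or highest array set apart from the rest by Dixon's criterion, and chance alone sets apart about 1 in 20. LAMA4 was 7.03 in the IGF2R knockdown, under the background level of that array (7.16), where the nearest of the other non-ZNF arrays had 6.62. LAMB2 was 9.96 and ITGA8 was 5.53 in the ZNF431 knockdown, where the nearest other ZNF arrays had 9.32 and 5.14. That ITGA8 value was under the background level of the ZNF431 array (6.96). ITGB4 was 7.25 in the ZNF429 knockdown, where the nearest other ZNF array had 7.52. For 0 chains did all ZNF knockdowns move one way and all other knockdowns the opposite way.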

How the results depend on the processing

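LAMC1 was higher in the knockdowns under every alternative run, but its call was lost with the array medians made equal (limma adjusted p = 0.0592), with the ZNF knockdowns alone (0.117), in the methods' t-test after Benjamini-Hochberg (0.0895) and Bonferroni adjustment, and without the 4 arrays of smallest SD, an alternative added after seeing the data (0.0655), so that 0 chains were called higher there. Leaving out 1 array gave 0 to 1 chains called higher, 0 called lower and 2 to 140 clusters called, where all arrays gave 119. The lowest was without siCON replicate 2, the 72 h array, and 13 were called without siCON replicate 1, 77 without ZNF85 and 78 without ZNF528. The methods' t-test called 64 clusters after Benjamini-Hochberg and 5 after Bonferroni adjustment. Between ZNF and other knockdowns, leaving out 1 of the other arrays gave 0 to 3376 clusters and 0 to 9 chains called, with 2 clusters without RASSF8. The 15 pairs past a log2 difference of 1 became 50 at 1.5-fold (10.8% of all pairs in either direction). They became 10 to 22 with 1 siCON array as the reference, and 8 without the 4 arrays of smallest SD. The counts with 1 siCON array and without those 4 arrays have no share of all pairs beside them. The count above background went to 10 with the median of all clusters as the level.

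Differences near 0 changed sign. LAMB1 (-0.02) had 0.0033 with quantile-normalized values, 0.014 with the trend removed, 0.0048 with the ZNF knockdowns alone and 0.016 without the 4 arrays of smallest SD. ITGA6 (-0.06) had 0.0087, 0.0059 and 0.11 with quantile normalization, trend removal and without those 4 arrays, and -0.10 to 0.0019 leaving out 1 array, the highest without IGF2R. ITGB5 (0.03) had -0.014 after median scaling, -0.0091 without those 4 arrays and -0.0023 to 0.079 leaving out 1, the lowest without ZNF91. ITGB8 (0.10) had -0.0047 and ITGAV (-0.06) 0.00097 after quantile normalization, and ITGAV 0.0015 with the trend removed. Without siCON replicate 2, ITGA8 (-0.03) had 0.15 and ITGB4 (-0.10) 0.03 (0.032), and leaving out 1 array gave -0.21 to 0.15 and -0.24 to 0.03. The causes were not tested. Of the other settings of single genes, 1105 kept direction and side of the threshold, 34 lost a call and 3 gained one.

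No paired analysis was possible because each knockdown is 1 array and the labels give no replicate numbers that pair arrays. Precision is limited by the 2 siCON arrays, and chains below background have little signal over it.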
